A study of Mus musculus with 68 samples.

Results

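The comparison set xylene-fixed against ethanol-fixed growth plate cartilage of mice at postnatal day 28 (P28). The series holds 68 libraries, of which 40 were P28, 14 of them xylene-fixed and 26 ethanol-fixed by the labels. Libraries with 100000 or more counts, after runs under one title were summed, entered: 12 of the 14 xylene libraries (2 resting, 5 proliferative and 5 hypertrophic zone) and 14 of the 26 ethanol libraries (3 resting, 6 proliferative and 5 hypertrophic zone). The P28 libraries were read as coming from 5 animals, called A to E here. For animals A and B, labels that differ only in their final number were taken as the same animal. The labels do not state this, so the number of animals may be larger. Animal D gave both fixations (8 xylene and 5 ethanol libraries entered), animal E xylene only (4), and animals A and B ethanol only (4 and 5). The 3 libraries of animal C, all ethanol, were under the minimum. All animals were of mixed background, and the labels give no genotype, sex or treatment. The labels of animal B are in the plural, so animal B may be a pool.

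The growth plate is the cartilage disc that lengthens a long bone. Its resting zone holds slowly dividing reserve chondrocytes, its proliferative zone columns of dividing cells, and its hypertrophic zone enlarged cells that precede bone. For laser capture, frozen sections are dehydrated, in ethanol or with a further step in xylene, a clearing solvent, because RNA in a wet section is open to degradation and the laser cuts dry tissue cleanly. The labels name the fixation of each library as xylene or ethanol and give no times or concentrations. Bones were frozen in embedding medium and cut at 10 microns, captured cells went straight into lysis buffer, and libraries were made by SMART-seq2, which copies whole messenger RNAs from small inputs.

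Cartilage genes were abundant in both fixations, in every entered library but 1. Collagen type II, Col2a1, the main fibre collagen of cartilage, lay between 38300 and 134000 counts per 1000000 (CPM) in 7 of the 8 xylene libraries of animal D, against 89400, 132000, 94900, 202000 and 41300 CPM in its 5 ethanol libraries. The 5 ethanol libraries of this animal are listed throughout as 2 hypertrophic, 2 proliferative and 1 resting, and the 4 libraries of animal E as 1 hypertrophic, 2 proliferative and 1 resting. CPM here is counts per 1000000 counts outside the symbols Rn45s, Lars2 and Glra2, whose shares swing between libraries. Aggrecan, Acan, the large proteoglycan of cartilage, lay between 8660 and 17200 CPM in the same 7 xylene libraries, against 6090 to 26200 in the ethanol ones. The exception was xylene hypertrophic replicate 3 of animal D, with 89.3 CPM of Col2a1, 491 of Acan and 41.8 of Col10a1, the collagen of hypertrophic chondrocytes. It held 79800 CPM of Col1a1 and 108000 of Col1a2, the chains of bone and fibrous-tissue collagen, against at most 167 and 2180 in the other xylene libraries of animal D and 96.0 and 1100 in its ethanol libraries. Its osteoblast and osteocyte list (10 of 12 members with a count) summed to 188300 CPM, against 387.8 to 2307 in the other 7 and 112.0 to 1566 in the ethanol libraries. Col1a1 and Col1a2 are members of that list and made up most of this sum, so it adds little to them. The perichondrium and fibroblast list (11 of 11) summed to 234100 in replicate 3, against 1300 to 4997 and 259.0 to 3656. Prehypertrophic and hypertrophic markers (17 of 18) summed to 31170 in replicate 3, against 1694 to 122900 in the other 7, which cover all zones. Col2a1, Acan and Col10a1 in this library thus go against its labelled zone, while the sum of that list does not. The main counts below are also given without this library.

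**Figure D1:**
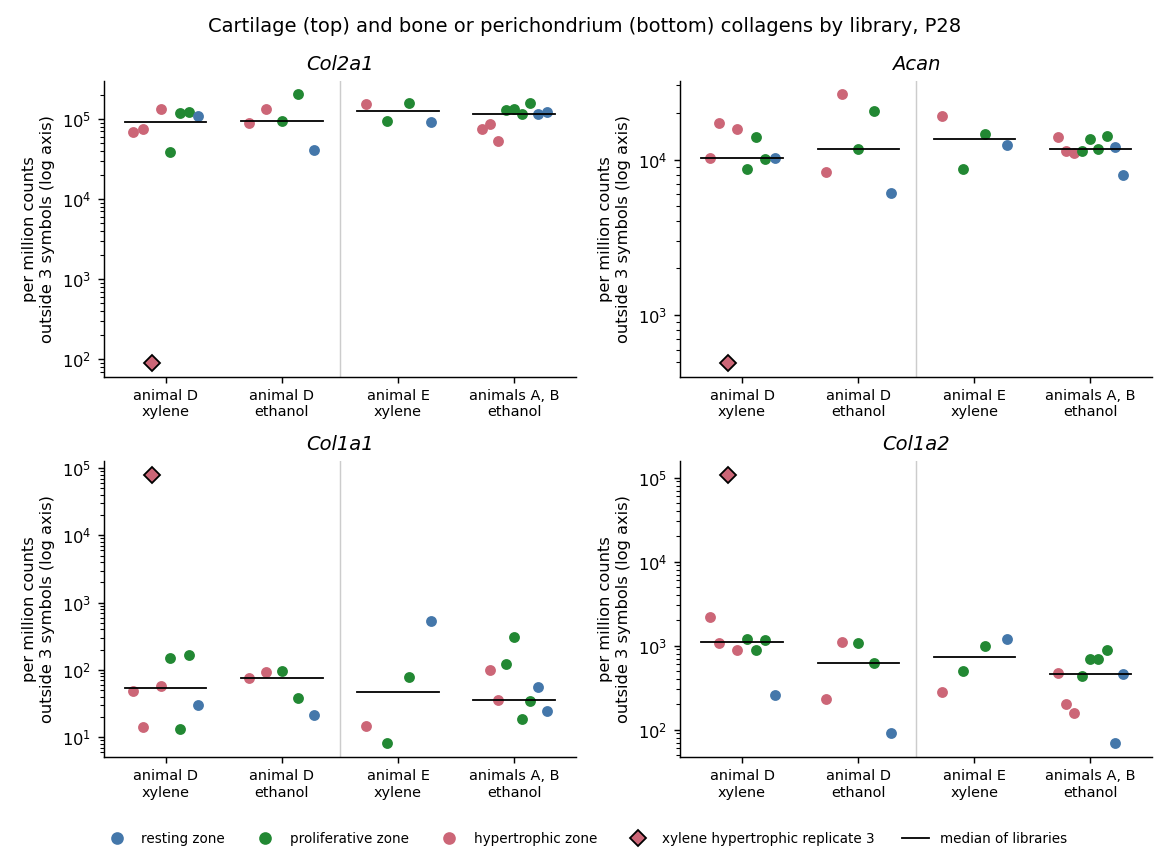
CPM outside Rn45s, Lars2 and Glra2 (log axis) of Col2a1, Acan, Col1a1 and Col1a2 in each entered library, by animal and fixation, with colours for the zones and bars for medians. Xylene hypertrophic replicate 3 (diamond) lies at 89.3 for Col2a1 and 79800 for Col1a1, away from every other library; libraries at 0 are not drawn on the log axis.

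Depth differed with fixation. Entered xylene libraries held 370654 to 2675003 counts (median 1633302), and ethanol libraries 108601 to 1379044 (median 240493). Within animal D, counts outside the 3 symbols did not overlap, with 360109 to 2105470 in xylene and 13080 to 305928 in ethanol libraries. Between animal E (62977 to 1725127, xylene) and animals A and B (63547 to 259281, ethanol) they overlapped through xylene proliferative replicate 5 only, at 62977. The other libraries of animal E, at 431938, 1364426 and 1725127, lay above every ethanol library of animals A and B. Of the other P28 libraries, 2 xylene and 12 ethanol ones fell under the minimum. Ethanol proliferative replicate 9 of animal D held 267 counts of Xist, the RNA of the inactive X chromosome, and none of the Y-linked genes, against 110 to 870 Y-linked counts in each xylene library of that animal. All entered libraries of animals A, B and E held Xist and no Y-linked counts.

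Xylene libraries of animal D carried a smaller share of Rn45s counts than its ethanol libraries. Rn45s is the transcript from which the ribosomal RNAs are cut, and its counts do not separate the precursor from the cut RNAs. It took 18.6 to 39.4% of all counts in the 8 xylene libraries (median 29.8%), against 94.0, 73.9, 55.3, 52.6 and 38.4% in the 5 ethanol libraries. Within each zone the 2 fixations did not overlap. The mean share was 30.3% in xylene and 83.9% in ethanol hypertrophic libraries, 29.3 and 54.0% in proliferative libraries, and 31.3 and 38.4% in resting libraries. The mean of the zone differences, xylene minus ethanol, was -28.5 percentage points (exact permutation of fixation within zone, two-sided, p = 0.00333, the smallest that 300 arrangements of 13 libraries can give). These are captures of 1 animal, so the p measures the spread between captures only. The other animals overlapped: the share was 12.6, 12.9, 78.7 and 28.8% in the xylene libraries of animal E (median 20.9%), against 26.2 to 41.7% (median 32.6%) in the ethanol libraries of animals A and B. Of the 4 libraries of animal E, the hypertrophic one and 1 of the proliferative ones lay below every ethanol library of A and B, and the other proliferative one lay above them. Over all P28 animals the difference came to -11.8 points.

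The same xylene libraries held more different genes at equal depth. With 20000 counts drawn outside the 3 symbols, 3175 to 5042 gene symbols were expected in the xylene libraries of animal D (median 4041), against 2823, 2150, 2709.6 and 2342 in its 4 ethanol libraries with that many counts. The mean difference over zones was 1767 symbols (exact permutation within zone, two-sided, p = 0.02, with 0.01 the smallest possible from 100 arrangements of 12 libraries). Without ethanol hypertrophic replicate 9 no ethanol hypertrophic library was deep enough, and the proliferative and resting zones alone gave 2189 with a p of 0.05, the smallest that 20 arrangements allow. Animal E gave 3702, 4187, 3032 and 4538 symbols in xylene, within or below the 3313 to 4725 (median 4290) of animals A and B in ethanol. The ethanol libraries of animals A and B thus lay above all 4 ethanol libraries of animal D. Over all animals the difference was 601.9 symbols.

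**Figure D2:**
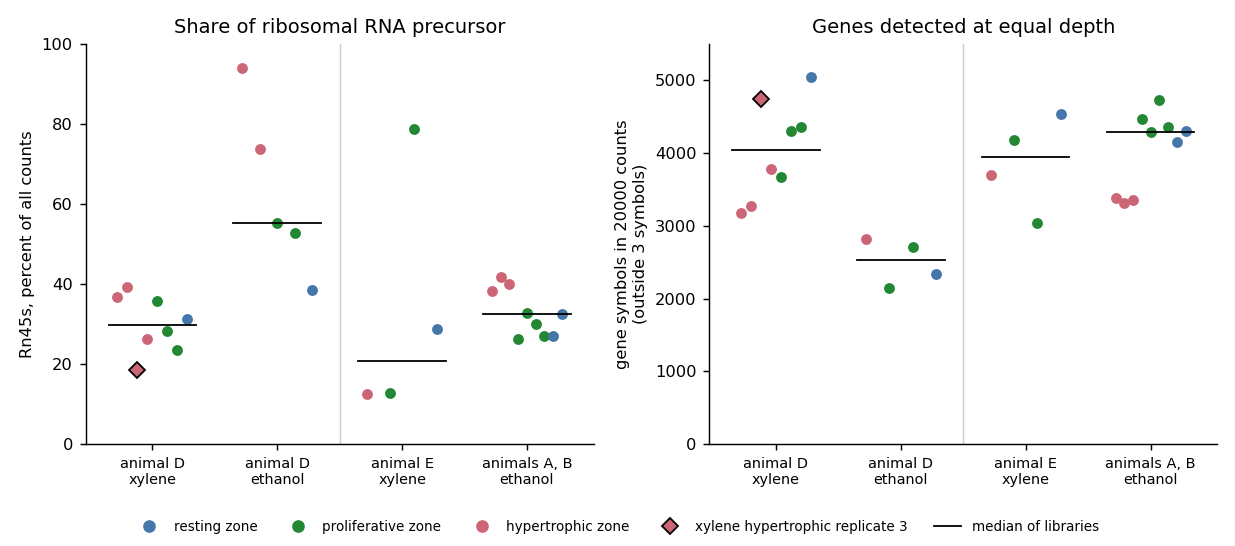
Left, Rn45s as percent of all counts; right, expected number of gene symbols in 20000 counts outside 3 symbols; each point is a library, grouped by animal and fixation, and bars are medians. Within animal D the xylene medians are 29.8% and 4041 symbols, against 55.3% and 2525.5 symbols in ethanol, while animal E (20.9% and 3944) lies near animals A and B (32.6% and 4290).

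Gene by gene, few symbols passed the test and all were lower in xylene. Libraries were summed per animal, zone and fixation into 15 sums and tested with edgeR's quasi-likelihood test, with animal and zone as blocks, so that the fixation term came from animal D. Of 7723 symbols tested, 3 (0.0388%) passed the Benjamini-Hochberg threshold of 0.05: Mir5109, Rpph1 and Prr15, and 0 were higher in xylene. At an unadjusted p under 0.05 there were 1391 (18.0%), 1238 higher in xylene (16.0%) and 153 lower (1.98%). On the same sums DESeq2 called 234 (3.03%), 147 higher (1.9%) and 87 lower (1.13%), and limma with a random animal effect called 10 (0.149%), 2 higher (0.0299%) and 8 lower (0.119%). With the deposit set in place of the animal edgeR called 9 (0.117%), 3 higher and 6 lower (0.0777%). With libraries as units it called 432 (5.08%), 385 higher (4.53%) and 47 lower (0.553%), where captures of 1 animal count as separate. Without xylene hypertrophic replicate 3, 4 of 7653 passed (0.0523%), the same 3 and Rn45s (log2 fold change -2.41 ± 0.46, adjusted p = 0.0137, and -2.64 ± 0.53, adjusted p = 0.0738, with that library), and 1330 (17.4%) had an unadjusted p under 0.05, 15.4% higher and 1.95% lower. Leaving out ethanol hypertrophic replicate 9 of animal D left 0 (2035 at an unadjusted p under 0.05), leaving out ethanol resting replicate 8 gave 17, and leaving out xylene resting replicate 3 gave 10. Without ethanol proliferative replicate 9, whose sex-linked counts go against its animal, 5 passed. With the minimum of 100000 set on counts outside the 3 symbols, 3 passed and none of them was Mir5109, Rpph1 or Prr15 (adjusted p = 0.0625, 0.0668 and 0.253), and with no minimum 0 passed (1235 at an unadjusted p under 0.05). With zone as the only block, as in a comparison that ignores the animals, 3 of 6700 passed (0.0448%), all lower in xylene: Prr15, the glycine receptor subunit Glra2, and Mir544.

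Rpph1, the RNA of ribonuclease P, which trims the ends of transfer RNA precursors, lies on chromosome 14 at 50807447 to 50807771 (GRCm38.p6). It stood at 80.0, 153 and 629 CPM (lowest, median, highest) in the 8 xylene libraries of animal D, against 41100, 2520, 1830, 1630 and 3660 in its 5 ethanol libraries, with no overlap. The log2 fold change, xylene over ethanol, was -4.0 ± 0.81 (SE; adjusted p = 0.0144). The value of 41100 came from ethanol hypertrophic replicate 8, where Rn45s took 94.0% of the counts and 13080 counts were left, 537 of them Rpph1. Outside animal D the fold change had the other sign. Rpph1 was at 133, 234, 2160 and 1230 CPM in the xylene libraries of animal E, against 70.4 to 266 (median 97.7) in the ethanol libraries of animals A and B, and the fold change between these animals was 1.82 ± 0.61 (adjusted p = 0.415).

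Mir5109 followed the same course within animal D. It stood at 206, 723 and 1520 CPM (lowest, median, highest) in xylene, against 99100, 2260, 3390, 7960 and 9090 in ethanol libraries, again with no overlap (log2 fold change -3.56 ± 0.66, adjusted p = 0.00445). In animal E it was at 821, 1520, 873 and 3060 CPM in xylene, within the 895 to 3760 of animals A and B in ethanol but for the lowest 2.

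Prr15, a proline-rich protein gene on chromosome 6 (54326756 to 54343436, GRCm38.p6), had a negative fold change in both sets of animals and passed within animal D. In animal D it stood at 9.94, 29.9 and 167 CPM in xylene, against 2370, 235, 1010, 115 and 1040 in ethanol (log2 fold change -4.54 ± 0.95, adjusted p = 0.0178). The groups overlap through xylene hypertrophic replicate 2, at 167. Animal E held 8.12, 26.4, 1700 and 123 CPM in xylene, against 158 to 1370 (median 486) in animals A and B, with a fold change of -3.10 ± 0.74 that did not pass (adjusted p = 0.16). The call for Prr15 was lost without ethanol proliferative replicate 8, without ethanol hypertrophic replicate 9, without xylene resting replicate 3 and without animal B, at fold changes of -4.09, -4.92, -4.26 and -4.45. It was also lost with no minimum of counts (-3.89) and with the minimum on counts outside the 3 symbols (-4.11, and -3.85 without xylene hypertrophic replicate 3).

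**Figure D3:**
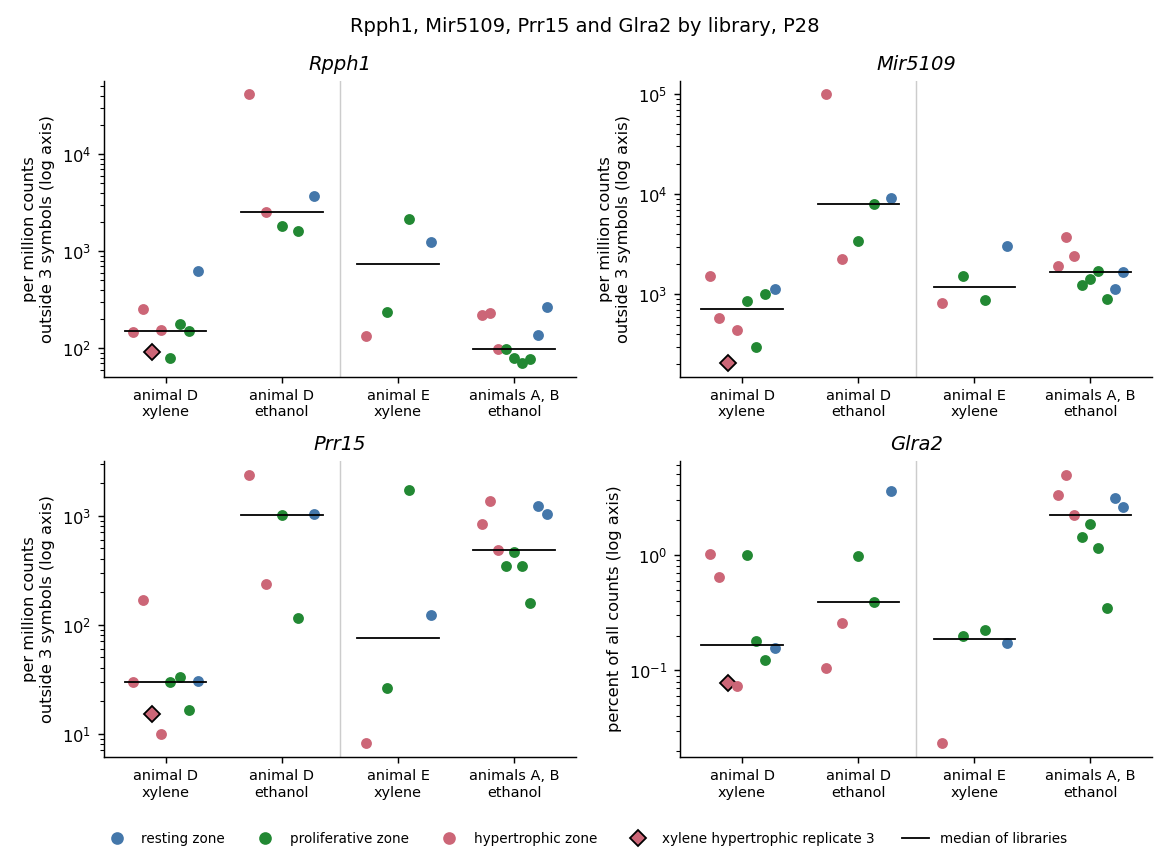
Rpph1, Mir5109 and Prr15 (CPM outside 3 symbols) and Glra2 (percent of all counts) in each entered library on log axes, by animal and fixation, with bars for medians. Rpph1 and Mir5109 separate xylene from ethanol within animal D (medians 153 against 2520, and 723 against 7960) but not between animal E and animals A and B, whereas Glra2 separates animal E from animals A and B (0.0233 to 0.226% against 0.35 to 4.96%) and overlaps within animal D.

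Positive differences were common and were larger, in the median, among weakly expressed genes. The median log2 fold change of all tested symbols was 1.09 with the TMM scaling used here and 0.74 with DESeq2's size factors, so a gene at 0 on this scale lies below the typical gene. Split into 5 equal classes by average expression (edgeR's log2 CPM over all counts), the median fold change was 2.77 in the lowest class and 1.72, 1.11, 0.71 and 0.20 in the next ones, and 2.63 to 0.35 without xylene hypertrophic replicate 3. With all sums thinned to the smallest, it still ran from 1.48 in the lowest to 0.16 in the highest class of the 1805 symbols left. Between animal E in xylene and animals A and B in ethanol it ran the other way, from 0.05 in the lowest to 0.42 in the highest class. By GC content the medians ran from 1.42 in the lowest to 0.65 in the highest class, and by transcript length from 1.18 in the shortest to 0.73 in the longest. Classes were cut over the tested symbols that matched a mouse transcript of the GENCODE annotation. These were 94.3% of symbols in the fits with animal D, 95.3% in the thinned fit and 94.5% between the other animals.

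**Figure D4:**
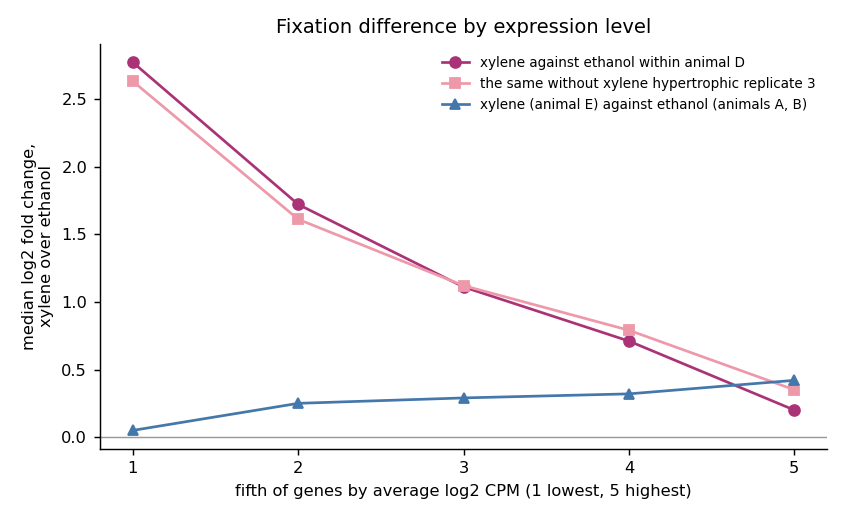
Median log2 fold change, xylene over ethanol, in 5 equal classes of genes by average log2 CPM (1 lowest, 5 highest), within animal D, within animal D without xylene hypertrophic replicate 3, and between animal E and animals A and B. The differences within animal D run from 2.77 in the lowest to 0.20 in the highest class, and those between the other animals stay between 0.05 and 0.42.

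Taking the libraries of animal D as units let single genes through. The fit of its 13 libraries called 81 of 9478 symbols (0.855%), 61 higher (0.644%) and 20 lower (0.211%) in xylene. Without xylene hypertrophic replicate 3 it called 42 of 8382 (0.501%), 30 higher (0.358%) and 12 lower (0.143%), of which 41 were among the 81. Units here are captures labelled as 1 mouse, so these calls measure the spread between captures. Without ethanol proliferative replicate 9, whose sex-linked counts go against that label, 59 of 9436 passed (0.625%), 42 higher (0.445%) and 17 lower (0.18%), of which 18 and 13 were among the 61 and 20. Without both doubted libraries 71 of 8771 passed (0.809%), 54 higher (0.616%) and 17 lower (0.194%), of which 15 and 8 were among the 30 and 12. The genes named next were chosen after their values were seen.

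Of the 30 higher genes, 15 had no count in any of the 5 ethanol libraries, which held 13080 to 305928 counts outside the 3 symbols. Such genes pass the low-count filter through the xylene libraries only. The share of all tested symbols at 0 in these ethanol libraries is not given here, so the 15 cannot be set against it. Uqcrb, a subunit of respiratory complex III, reached 104 CPM over the pooled 7 xylene libraries. Over the 5 pooled ethanol libraries, ethanol proliferative replicate 9 included, 3 counts would give 3.58 CPM. Because the genes named here were picked at 0 in ethanol, no fold change is drawn from that value. Rpl15, a protein of the large ribosomal subunit, reached 85.6, though reads of ribosomal protein genes may be shared with near-identical copies. Sf3b3, a splicing factor subunit, reached 75.9. Fis1, which acts in mitochondrial fission, reached 70.3 and Psma5, a proteasome subunit, 63.6. Animals A and B held these genes in ethanol too, Fis1 at up to 142 CPM and Uqcrb at up to 88.7. In animal E in xylene Fis1 reached 158 and Uqcrb 33.6. Without both doubted libraries Uqcrb, Rpl15 and Sf3b3 still passed, and Fis1 and Psma5 did not.

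The 12 lower genes included a relative of Rpph1. Rmrp, the RNA of ribonuclease MRP, an enzyme that acts on ribosomal RNA precursors, was called beside Rpph1, Rn45s, Mir5109 and Prr15 (log2 fold change -5.30 ± 1.45, adjusted p = 0.0491). It reached 3.11 CPM at most in the xylene libraries of animal D (13 counts in all), against 0 to 535 in its ethanol libraries (43 counts). Outside animal D it lay at 1.47 to 31.8 CPM in animal E in xylene (18 counts). In animals A and B in ethanol it lay at 0 to 8.88 (2 counts). The remaining 7 of the 12 lower genes were March1, Pkd1l2, Slc25a35, Zfp248, Smr2, Sipa1l2 and Coa4. These calls rest on few libraries: of the 5 ethanol libraries, Smr2 had counts in 1, March1, Pkd1l2, Zfp248 and Coa4 in 2, and Slc25a35 and Sipa1l2 in 3. Rmrp, March1, Slc25a35 and Coa4 no longer passed without both doubted libraries.

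Among 22 gene lists, Rpph1 was the only member called. Lists are therefore given by their counts and medians beside the median of all tested symbols, 1.09. Cell cycle and mitosis genes had the largest positive median of the process lists, 3.37 (2.92 without xylene hypertrophic replicate 3), with 29 of 31 members tested, 29 above 0, and 13 at an unadjusted p under 0.05, where 16.0% of all symbols were higher by that rule. Top2a, the topoisomerase that untangles chromosomes, stood at 690, 584 and 333 CPM in the proliferative and 1130 in the resting xylene libraries of animal D, against 17.5 and 22.9 in the proliferative and 14.0 in the resting ethanol libraries (log2 fold change 4.75 ± 1.19, adjusted p = 0.108). Cdk1, the kinase that starts mitosis, ran up to 292 CPM in xylene and 11.5 in ethanol (4.77 ± 1.80, adjusted p = 0.177). Mki67, a marker of cycling cells, overlapped, with up to 1060 CPM in xylene and 367 in ethanol (2.07 ± 1.11, adjusted p = 0.311). In these pooled captures, fewer dividing cells, less of their RNA per cell and weaker detection in the ethanol libraries cannot be told apart. Over all symbols, the lowest class of average expression had a median of 2.77. The part of expression level in this list was not tested. Between animal E and animals A and B the list's median was -0.03, with 11 of 23 above 0, and Top2a lay at 58.5 to 206 CPM in xylene and 0 to 861 in ethanol.

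Chaperones and amino acid response genes had positive medians as well. The 14 tested heat shock genes had a median of 2.20 (2.47 without xylene hypertrophic replicate 3), and their summed level did not overlap, with 2255 to 11730 CPM in the xylene and 535.2 to 2234 in the ethanol libraries of animal D. Hsp90aa1, a stress-induced chaperone, lay at 55.5 to 562 CPM in xylene and 0 to 13.1 in ethanol (3.81 ± 1.51, adjusted p = 0.185). Bag3, a co-chaperone of the heat shock response, lay at 33.3 to 292 in xylene and 0 to 22.9 in ethanol (3.24 ± 1.27, adjusted p = 0.18). Hspa5, the chaperone of the endoplasmic reticulum, was the most abundant, at 1040 to 7930 in xylene and 76.5 to 2020 in ethanol (0.92 ± 0.68, adjusted p = 0.491). The amino acid response list had a median of 2.29 over 10 of 20 members. Mthfd2, a mitochondrial folate enzyme, lay at 38.9 to 217 CPM in xylene and 0 to 26.2 in ethanol (4.89 ± 1.70, adjusted p = 0.177). Neither median was positive between animal E and animals A and B, where heat shock genes had -0.37 and amino acid response genes -0.27. The summed heat shock level there was 1308 to 3176 CPM in animal E and 1734 to 3418 in animals A and B.

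Cartilage lists lay below the median of all symbols. That median depends on expression, and in the highest class it was 0.20 (0.35 without xylene hypertrophic replicate 3). No list was matched for expression level, so its part in the differences between lists was not tested. Cartilage matrix genes had a median of -0.39 over 22 of 24 members (-0.07 without xylene hypertrophic replicate 3), 1.48 below the median of all symbols, with 9 above 0. Their summed level overlapped: 213100 to 287300 CPM in 7 xylene libraries of animal D and 19170 in replicate 3, against 119400 to 388000 in its ethanol libraries. Col2a1 itself had a fold change of -0.61 ± 0.45 (adjusted p = 0.486) and Acan -0.93 ± 0.52 (adjusted p = 0.335). Col9a1, a collagen on the surface of cartilage fibrils, had 0.11 ± 0.50 and Comp, a matrix glycoprotein, -1.18 ± 0.57 (adjusted p = 0.928 and 0.257). Prehypertrophic and hypertrophic markers had a median of -0.28 over 16 of 18. Pth1r, the receptor of parathyroid hormone-related protein, had the lowest unadjusted p of that list, 0.00902, at -1.58 ± 0.59 (adjusted p = 0.177), and -1.17 without replicate 3. Chondrocyte transcription factors, among them Sox9 at -0.19 ± 0.72, had a median of -0.19, which turned to 0.25 without replicate 3.

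Housekeeping lists lay nearer the typical gene. Nuclear genes of oxidative phosphorylation had a median of 0.92 over 65 of 71 members, and their sums were 6868 to 14400 CPM in the xylene and 2064 to 7366 in the ethanol libraries of animal D. Cholesterol synthesis genes had a median of 1.09 over 21 of 23. Ribosomal proteins had 0.18 over 46 of 78, secretory pathway genes 0.21 over 31 of 32, and glycolysis and hypoxia genes 0.29 over 21 of 28; these 3 medians turned to -0.15, -0.21 and -0.02 with DESeq2's size factors. Resting zone markers had 0.72 over 13 of 15 and immediate early genes 1.20 over 14 of 23. Osteoblast and perichondrium lists had medians of 3.71 each over 5 members, and 0.77 and 0.27 without xylene hypertrophic replicate 3. The lists may share members, so their equal medians are not separate results. Of the other cell type lists, endothelial markers had no member tested, and osteoclast, fat, muscle and red cell markers had 1, 1, 2 and 3. The depth outside the 3 symbols and the number of genes at equal depth moved with fixation in animal D as given above, and their part in these medians was not tested beyond the thinned fit.

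**Figure D5:**
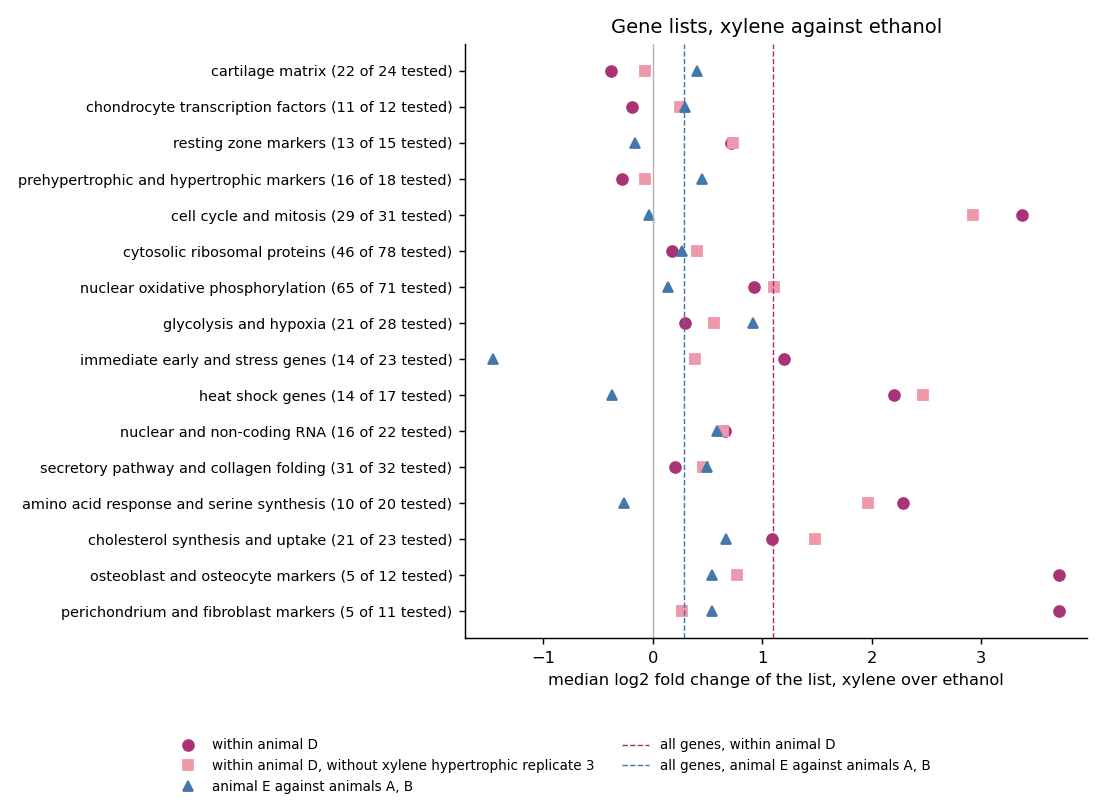
Median log2 fold change, xylene over ethanol, of each gene list within animal D (circles), without xylene hypertrophic replicate 3 (squares) and between animal E and animals A and B (triangles), with dashed lines for all tested symbols (1.09 and 0.28) and the members tested within animal D in brackets. Cell cycle genes lie at 3.37 within animal D and -0.03 between the other animals, and osteoblast and perichondrium markers move from 3.71 to 0.77 and 0.27 without replicate 3.

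Outside animal D, xylene and ethanol came from different mice. Animal E in xylene was set against animals A and B in ethanol, 4 against 9 libraries in 9 sums, with no library shared with the contrast within animal D. Fixation, animal and the 2 sets in which the libraries were deposited cannot be told apart there. Of 6322 symbols, 2 passed (0.0316%), 1 higher and 1 lower (0.0158% each), and 439 had an unadjusted p under 0.05. Plagl1, an imprinted zinc finger transcription factor, was higher: 2040, 5940, 715 and 1500 CPM in xylene, against 55.2 to 1740 (median 728) in ethanol (log2 fold change 2.70 ± 0.52, adjusted p = 0.0178). Within animal D it stood at 435 to 4930 CPM in xylene and 133 to 1630 in ethanol (1.33 ± 0.74, adjusted p = 0.33). Glra2 was lower, at 0.0233, 0.198, 0.226 and 0.173% of all counts in xylene, against 0.35 to 4.96% (median 2.22%) in ethanol (-4.11 ± 0.71, adjusted p = 0.0178). Within animal D it ran from 0.0739 to 1.02% in xylene and 0.104 to 3.58% in ethanol (-3.11 ± 0.75, adjusted p = 0.146). Of the 30 genes higher within animal D without xylene hypertrophic replicate 3, 29 were tested here and 19 had the same direction, where 60.1% of all symbols were positive. Of the 12 lower ones, 4 were tested and 2 had the same direction, where 39.9% were negative.

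Few symbols passed a test of whether the fixation difference differed between zones. Set between hypertrophic and proliferative zone, edgeR's interaction test called 0 of 9115 symbols (0.0%), with 291 at an unadjusted p under 0.05, 0 by limma and 44 by DESeq2. Without xylene hypertrophic replicate 3 it called 1 of 9061 (0.011%), Scara3, a scavenger receptor family gene, at -10.68 ± 2.31 (adjusted p = 0.0349). Scara3 was at 0 in the 3 other hypertrophic xylene libraries of animal D, against 76.5 (1 count) and 0 CPM in the ethanol ones, and at 2.29, 45 and 6.5 in proliferative xylene libraries, against 0 and 0 in ethanol. With so many libraries at 0, the fitted difference is no measure of size. Between resting and proliferative zone 1 of 9115 (0.011%) was called: Frzb, a secreted antagonist of Wnt signals on chromosome 2 (80411970 to 80447396, GRCm38.p6), at -10.26 ± 1.73 (adjusted p = 3.14e-05). It stood at 1.04 CPM in the resting xylene library of animal D, against 1040 in the ethanol one, and at 20.6, 0 and 80.8 in its proliferative xylene libraries, against 8.73 and 3.82 in ethanol. Each fixation had 1 resting library in this animal. The ethanol resting libraries of animals A and B held 1260 and 0 CPM, as far apart as the pair within animal D, and the resting library of animal E held 2.32 in xylene.

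Further transcripts named for every comparison did not pass. Lars2, a mitochondrial leucyl transfer RNA synthetase, took 1.18 to 4.74% of all counts in the xylene and 3.11 to 5.75% in the ethanol libraries of animal D (-1.75 ± 0.54, adjusted p = 0.177). Malat1, a long RNA kept in the nucleus, was at 8090 to 55000 CPM in xylene and 6350 to 111000 in ethanol (-1.32 ± 0.49, adjusted p = 0.177). Neat1, the RNA of nuclear paraspeckles, was at 158 to 2070 in xylene and 157 to 2590 in ethanol (-1.40 ± 0.71, adjusted p = 0.282). Col10a1 kept its zone pattern in both fixations: 16700, 33800 and 93100 CPM in hypertrophic xylene libraries of animal D other than replicate 3, against 7420 and 66700 in ethanol, and at most 70.0 in proliferative xylene libraries, against 107 and 271 in ethanol (-1.57 ± 1.82, adjusted p = 0.698). Ucma, a matrix protein of the upper zones, stood at 973 to 1940 CPM in proliferative and resting xylene libraries, against 602, 1390 and 1180 in ethanol (0.34 ± 0.77, adjusted p = 0.851). Col10a1 thus separated the hypertrophic from the other libraries of animal D in both fixations, apart from xylene hypertrophic replicate 3.

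Proliferative libraries of animal D were more alike within xylene than across fixations. Across the 7723 tested symbols, Spearman's rho between proliferative libraries was 0.558 to 0.628 for 3 xylene pairs, 0.326 for the ethanol pair and 0.341 to 0.456 for 6 mixed pairs. Between hypertrophic libraries it was 0.471 to 0.61 for 6 xylene pairs, 0.284 for the ethanol pair and 0.175 to 0.582 for 8 mixed pairs. The points are genes of libraries labelled as the same animal and share library depth, which was lower in ethanol. The pairs include ethanol proliferative replicate 9 and xylene hypertrophic replicate 3, both doubted above. They also include ethanol hypertrophic replicate 8, with 13080 counts outside the 3 symbols, and no values are given without these libraries. Resting libraries gave 1 mixed pair, at 0.328.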

How the data were processed

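Counts per gene symbol (23420 symbols, 100 columns) were used as the authors deposited them, not normalised. Reads had been trimmed with cutadapt, aligned to mm10 with STAR 2.5.2b and counted with featureCounts 1.5.3 of Subread, per the submitters' processing notes; for the annotation, the strand setting and the handling of multimapping reads nothing is given in the sources used here. Because SMART-seq2 libraries carry no strand information, reads of antisense partners cannot be separated, and genes with near-identical copies may hold each other's reads.

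Columns sharing a title were summed, and libraries under 100000 counts were left out. The rest were summed per animal, zone and fixation and fitted in edgeR 4.0.16 (R 4.3.3) with TMM scaling, filterByExpr, animal and zone as blocks, and its quasi-likelihood test in robust mode. P-values were adjusted by Benjamini-Hochberg across the tested symbols, at a threshold of 0.05. The zone-only fit of the comparison as posed is an alternative. Sums of 1 animal are paired by the animal label. Standard errors (SE) were obtained by dividing the log2 fold change by √F. Zone differences used an interaction term. CPM values are over the counts outside Rn45s, Lars2 and Glra2, and genes at equal depth are the expected number in 20000 such counts. Exact permutations were done in Python 3.11.15 with scipy 1.17.1. Alternatives were limma 3.58.1, DESeq2 1.42.0, other scaling, filters, units and blocks, thinned sums and each library or animal left out. The edgeR fit of the sums was also run on simulated counts. These held no animal or zone effect, so that run does not show how the fit performs on the data here.

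Genes named by rule were the 12 passing symbols with the largest change per direction, of average log2 CPM of at least 5 and moving the same way in every zone of animal D; passing members of the 22 lists and passing genes of the zone differences; and a fixed set (Rn45s, Lars2, Glra2, Malat1, Neat1, Col2a1, Acan, Col10a1, Ucma, and Xist with the Y-linked genes as a label check). Others, list examples included, were chosen after their values were seen. Members and lists were chosen with earlier results of these data known. Nothing says that captures of 1 animal came from separate bones, and fixation was estimated within 1 animal, so p-values measure the spread between captures or sums, which may be technical. Counting error only limits depth statements. Gene positions are from the RefSeq annotation of GRCm38.p6.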

Additional observations from a re-analysis of the deposited data

Results flagged for a closer look

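Each measure was looked at within the groups of 4 to 10 libraries of 1 zone and fixation. In 11 of 52 combinations of a measure and a group, a library lay far from the others by Dixon's gap criterion. For independent, normally spread values chance marks about 1 in 20. Here the measures share libraries, the groups mix animals and many values are skewed, so the 11 cannot be set against that rate. Values are counts per 1000000 outside Rn45s, Lars2 and Glra2 unless said otherwise.

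Xylene proliferative replicate 5 of animal E, in which Rn45s took 78.7% of counts and 62977 counts were left, stood apart in 3 genes. It held 1700 of Prr15 (16.6 to 33.3 in the other 4), 2160 of Rpph1 (80.0 to 234) and 8920 of Col10a1 (5.83 to 2410). Ethanol hypertrophic replicate 8 of animal D, with 13080 counts left, held 41100 of Rpph1 (97.3 to 2520 in the others) and 99100 of Mir5109 (1940 to 3760). Ethanol proliferative replicate 9 of animal D, whose Xist and Y-linked counts go against the rest of that animal, held 7960 of Mir5109 (895 to 3390) and 20500 of Acan (11300 to 14200).

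Xylene hypertrophic replicate 2 held 167 of Prr15 (8.12 to 30.0 in the others), and ethanol hypertrophic replicate 5 held 309 of Ucma (0 to 39.2). Glra2 took 1.0% of all counts in xylene proliferative replicate 1 (0.124 to 0.226% in the others). Ethanol hypertrophic replicate 9 gave 2820 symbols at 20000 counts (3310 to 3380 in the others).

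The fixation difference of Frzb differed between resting and proliferative zone by -10.26 on the log2 scale in the interaction test, with 1 resting library per fixation in animal D.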

How the results depend on the processing

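The number of genes past the threshold (3) moved to 9 with the deposit set in place of the animal, 10 with limma, 234 with DESeq2, 11 with no filter on low counts, 0 with no minimum of counts per library, 432 with libraries as units, 81 in animal D alone and 5 without the library whose sex-linked counts go against its animal. Without a replicate block, that is without pairing by animal, it was 3, and Prr15 was the 1 gene shared. With the minimum on counts outside Rn45s, Lars2 and Glra2 it was also 3, with and without xylene hypertrophic replicate 3, and 0 were shared. Settings chosen after seeing the data, gave, without xylene hypertrophic replicate 3, 9 with a random animal effect, 42 in animal D alone, 6 with thinned sums and 212 with DESeq2, and in animal D alone 59 without ethanol proliferative replicate 9 and 71 without both. With 1 library or animal left out it was 0 to 17. Beside edgeR's 0 there stood 1235 genes at an unadjusted p under 0.05 with no minimum and 2035 without ethanol hypertrophic replicate 9.

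The count for hypertrophic against proliferative zone (0) moved to 3 without a replicate block, 44 with DESeq2, 1 with the minimum on counts outside the 3 symbols and 6 in animal D alone. Added settings without replicate 3 gave 1 without the block, 4 in animal D alone, 1 with that minimum, 56 with DESeq2 and 1 with size factors, animal D alone gave 11 without ethanol proliferative replicate 9 and 8 without both, and animal E against A and B gave 4. Leaving out libraries or animals gave 0 to 1. The count for resting against proliferative zone (1) moved to 5 without a replicate block, 57 with DESeq2, 3 with size factors, 24 with that minimum and 3 with animal labels as written. It was 0 with the deposit set, limma, no minimum, libraries as units, animal D alone and thinned sums. Added settings gave 5 without the block, 54 with that minimum, 51 with DESeq2, 2 with size factors and 0 with a random effect, animal D alone (also without ethanol proliferative replicate 9) and thinned sums, and animal E against A and B gave 5. Leaving out libraries or animals gave 0 to 2.

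The Rn45s difference was -11.77 points over all animals and -39.18 to -25.14 with 1 library left out. The difference in symbols at equal depth was 601.9 over all animals and 1300.0 to 2189 with 1 library left out. Frzb passed in 28 of 40 settings.

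Signs turned between animal E and animals A and B for Rpph1 (1.82), Mir5109 (0.30), Malat1 (0.59), Neat1 (0.10), Col2a1 (0.48), Acan (0.49) and Ucma (-0.07). Neat1 was 0.05 in animal D alone and 0.17 there without replicate 3. Col2a1 without replicate 3 was 0.09 without the block, 0.04 with a random effect and 0.05 with the minimum outside the 3 symbols, in animal D alone 0.14 without ethanol proliferative replicate 9 and 0.45 without both, and -1.05 to 0.10 with 1 library or animal left out. Acan was 0.19 in animal D alone without both. Col10a1 was 0.71 with the deposit set and -2.92 to 0.43 on leaving out. Ucma was -0.10 with DESeq2, -0.09 with size factors and -0.07 to 0.86 on leaving out. The cause of these moves was not tested.

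Precision is limited by ethanol libraries of animal D with 13080 to 305928 usable counts, 8 residual degrees of freedom and 1 resting library per fixation.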
